A study of Arabidopsis thaliana with 72 samples.

Results

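Roots were set against shoots of Arabidopsis thaliana seedlings at 1 point of a treatment series, 12 h after ethanol was added as the solvent control. The comparison used 6 of the 66 distinct libraries, 3 from roots (0.1% EtOH, 12 h) and 3 from shoots (0.1% EtOH, 12 h), and every gene in the table entered it. The plants were 14 days old and grew on sucrose-containing agar in days of 16 h light and nights of 8 h, with 24 seeds on a plate. Liquid (8 mL per plate) was added 7 h after lights on, so by the labels the 12 h plants were taken 19 h after lights on and 3 h into the dark. Those of 0, 1, 3, 6 and 24 h were taken in the light. The hours since treatment and the dark cannot be told apart at 12 h. The labels name no ecotype for these groups and do not say whether the 3 libraries of a group came from separate plates. Any p-value here therefore reflects only how libraries scatter within their groups, which may be technical. That scatter was estimated over all 66 libraries, those of other times and treatments included, and not from the 6 alone. Libraries of roots and shoots given 21 µM t-chalcone for 12 h are set beside the comparison. Their levels do not enter the organ difference at EtOH 12 h, but their scatter enters its p-values. Each gene's level is its normalised read count, the count divided by a size factor of its library, so levels are compared between organs within a gene and not between genes.

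Shoots of a seedling carry the green tissue, where chloroplasts capture light, fix carbon into sugar and store part of it as starch that is broken down at night. Roots take up water and mineral ions through root hairs and move them inward past the endodermis, a cell layer sealed by the Casparian strip, a lignin band, and by suberin, a waxy polymer. Both organs run a circadian clock of morning and evening transcription factors that repress or activate each other, and in leaves that clock times photosynthesis and starch use. Leaves bear stomata, trichomes and a waxy cuticle, which roots lack, and the 2 organs make different sets of defence compounds.

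The libraries differed widely in depth. The root libraries held 2.25, 18.6 and 18.1 M counts and the shoot libraries 21.8, 0.246 and 19.1 M, in the order of replicates 1 to 3. Shoot replicate 2 was among 5 libraries of the series under 0.5 M. Root replicate 1 at EtOH 0 h and at 3 h and shoot replicate 3 at EtOH 24 h, which enter the comparison with other times, were also among them. In shoot replicate 2 at 12 h 1 read was worth about 40.5 normalised counts and 77.8% of the genes stood at that lowest value, so the level of a gene silent in shoots reads about 40 there, and small differences cannot be seen in it. Root replicate 1 was the shallowest root library and 1 of 7 in the series whose label carries a sample number in place of an index sequence. The table holds no zeros. A gene at the lowest value of its column cannot be told from one without reads.

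Markers matched the labelled organs in all 6 libraries, apart from the stomatal list, which cannot place shoot replicate 2. Over 25 root hair genes the normalised counts summed to 6019, 7016 and 9888 in the root libraries, against 701 to 1012 in the shoot libraries, where all 25 stood at the lowest value in replicate 2. Over 15 Casparian strip genes the sums were 4976 to 6613 in roots and 580 to 613 in shoots, where all 15 stood at the lowest value in replicate 2. The 21 light-harvesting genes summed to 4578 to 5436 in roots and to 561980 to 1174800 in shoots, and the 21 Calvin cycle genes to 6428 to 7369 in roots and 255250 to 502640 in shoots. The 21 stomatal and guard cell genes summed to 414 to 418 in roots, where 11 to 16 stood at the lowest value, and 1417 to 2845 in shoots. The 1417 is that of shoot replicate 2, where 20 of the 21 stood at the lowest value. That value is high there, so the sum does not tell the organ of that library. In whole organs, fewer cells of a type and less RNA per cell cannot be told apart.

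The hour of day is known only from the labels, and transcripts of the clock differed between times that share that hour. CCA1 and LHY are morning factors known to peak near dawn. LHY had medians over 3 libraries of 42.3, 16.7, 43.8, 9.69, 696 and 473 normalised counts in roots and 152, 22.9, 278, 10.7, 5840.2 and 3444 in shoots at the 6 EtOH times (0, 1, 3, 6, 12, 24 h). Its level at 24 h was near that at 12 h in both organs and far above that at 0 h, although 0 h and 24 h share an hour of day by the labels. The groups keep their labelled times here, and what is said of the dark at 12 h rests on those labels alone.

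**Figure D1:**
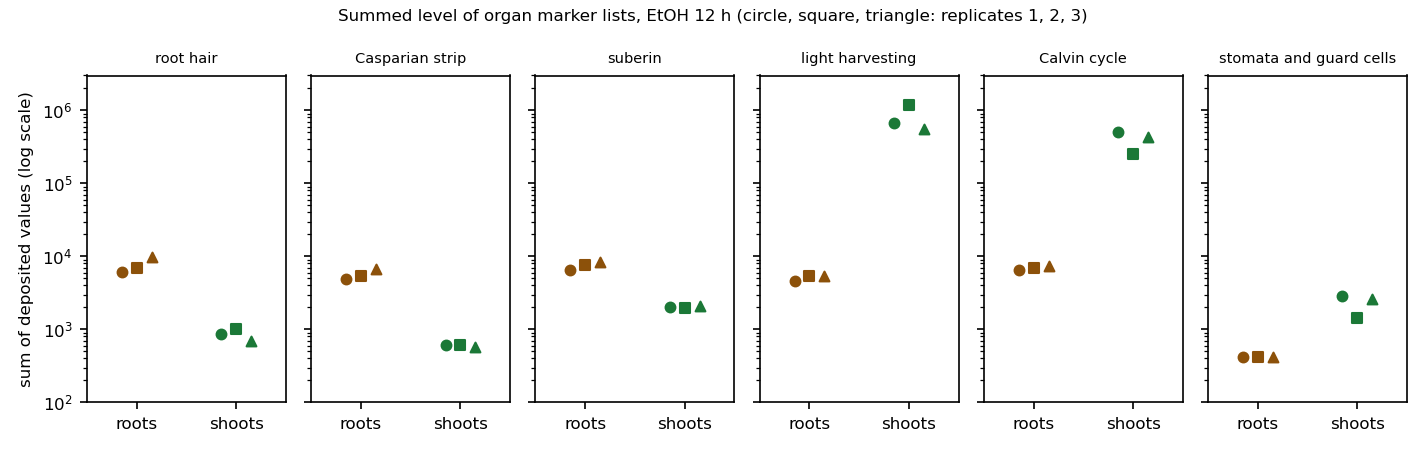
Summed normalised count of 6 marker lists in each library (log axis), root libraries left of shoot libraries, 1 point per library. Root hair, Casparian strip and suberin sums were higher in all 3 root libraries, and light-harvesting, Calvin cycle and stomatal sums were higher in all 3 shoot libraries. In shoot replicate 2, 20 of the 21 stomatal genes stood at that library's high lowest value, so its stomatal point reflects depth.

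The organs differed in a large share of the transcriptome. Of 19524 genes with at least 10 normalised counts in at least 3 of the 6 libraries, 7014 (35.9%) were higher and 5097 (26.1%) lower in roots at an adjusted p under 0.05 (limma, Benjamini-Hochberg, two-sided). Every gene reached 10 in shoot replicate 2, whose lowest value was 40.5, so that library removed no gene. Without shoot replicate 2 the split turned to 5684 (29.1%) higher and 6335 (32.4%) lower, and the median log2 fold change over all genes, roots over shoots, moved to -0.08 from 0.28. A gene is therefore called higher or lower in roots only where it passed in the same direction with and without that library. These calls covered 4793 genes (24.5%) higher and 4289 (22.0%) lower in roots, of which 3410 (17.5%) and 3275 (16.8%) also had a log2 fold change of at least 1 in size in both fits. The 3 root libraries lay entirely above the 3 shoot libraries for 5421 genes (27.8%) and entirely below for 4394 (22.5%). Without root replicate 1 the calls were 4668 higher and 3900 lower in roots. The shares of 24.5% and 22.0% are the background for all counts of called list members below. Folds below are from the fit with all libraries, and the value without shoot replicate 2 follows where it differs by more than 1.5-fold or ends a call.

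**Figure D2:**
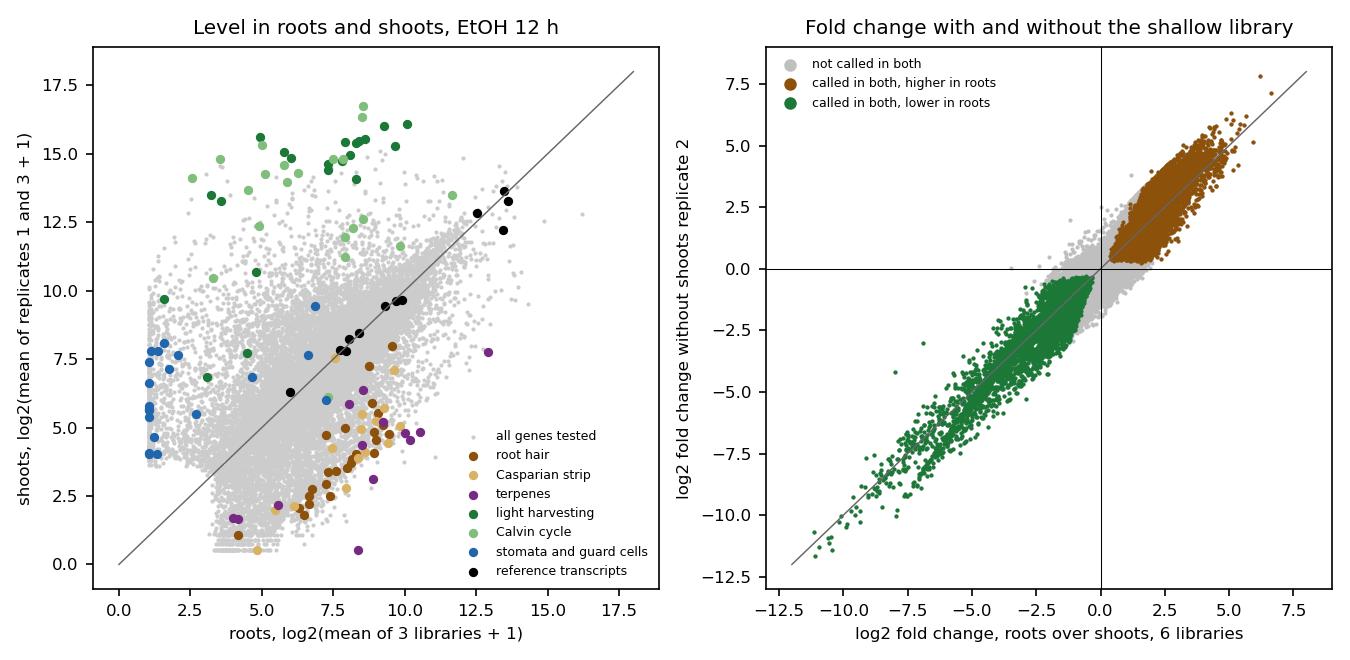
Left, log2 of the mean level of each tested gene in shoots without replicate 2 (vertical) against roots (horizontal). Light-harvesting, Calvin cycle, root hair, Casparian strip, terpene, stomatal and reference genes are coloured. Right, log2 fold change of roots over shoots without shoot replicate 2 (vertical) against that with all libraries (horizontal), with called genes coloured. Photosynthesis genes lie far above the diagonal on the left, and on the right 29 genes were called in opposite directions with and without that library.

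Transcripts of photosynthesis were among the 15 lowest in roots of the genes with a RefSeq symbol. LHCB1.1, a chlorophyll-binding protein of the main light-harvesting antenna, had 20.4, 32.96 and 36.4 normalised counts in the root libraries, against 53947, 129100 and 46290 in the shoot libraries. Every shoot library was above every root library, as the rule for naming the 15 lowest required. LHCB1.1 had a log2 fold change of -11.15 ± 0.68 (SE; adjusted p = 3.37e-20). RBCS1B, a small subunit of Rubisco, the enzyme that fixes carbon dioxide, had 2.55, 8.32 and 3.93 in roots and 17326, 5264 and 18222 in shoots. Its log2 fold change was -11.08 ± 0.70 (adjusted p = 1.35e-19). RBCS2B and RBCS3B, with -10.93 ± 0.72 and -9.84 ± 0.59, are alike in sequence, and so are the LHCB1 genes, so reads may be split between copies. CA1, a carbonic anhydrase that supplies dissolved carbon dioxide in the chloroplast, had 7.66, 13.3 and 12.1 in roots and 26818, 11703 and 19748 in shoots, with a log2 fold change of -10.61 ± 0.67 (adjusted p = 1.16e-19).

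Most other genes of photosynthesis were lower in roots too. All 21 light-harvesting genes were lower in roots, with a median log2 fold change of -6.84 against 0.28 over all genes, and so were all 33 photosystem and electron transport genes, with a median of -6.80. PSAH2, PSAE1 and PSAD2, subunits of photosystem I, had log2 fold changes of -8.34 ± 0.34, -8.13 ± 0.34 and -7.93 ± 0.40, and PETE1, a plastocyanin that carries electrons to photosystem I, -7.64 ± 0.51. In the Calvin cycle 20 of 21 genes were lower in roots (median -7.40), among them FBA1, a plastid aldolase, with -9.05 ± 0.43. CP12-3, named after its value was seen, was not called, with 0.07 and 1.21 without shoot replicate 2. Photorespiration, which recycles the product of the oxygen reaction of Rubisco, had 17 of 17 genes lower (median -5.08). GOX1, the peroxisomal glycolate oxidase, had 7.66, 16.98 and 13.2 normalised counts in roots and 18066, 2268 and 14798 in shoots, and its log2 fold change was -9.34 ± 0.64, or -10.29 without shoot replicate 2. HPR1, a hydroxypyruvate reductase, had -7.89 ± 0.31. GLU1, a ferredoxin-dependent glutamate synthase, had -7.82 ± 0.41 and -8.7 without that library. PLGG1, the plastid glycolate and glycerate transporter, had -7.14 ± 0.66 and -8.79 without that library. In chlorophyll synthesis 22 of 25 genes were lower (median -3.65), with GUN4, an activator of magnesium chelatase, at -7.44 ± 0.43, CRD1, a cyclase subunit, at -6.72 ± 0.20, and PORC, a protochlorophyllide reductase, at -5.89 ± 0.27. The 3 that were not called, named after their values were seen, were HEMA2 with 0.78, GSA1 with -0.53 and PPOX1 with -0.73, and without shoot replicate 2 they had 0.07, -1.74 and -2.47. GLK1, a transcription factor of chloroplast genes, had -5.88 ± 0.68 and -7.34 without shoot replicate 2.

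**Figure D3:**
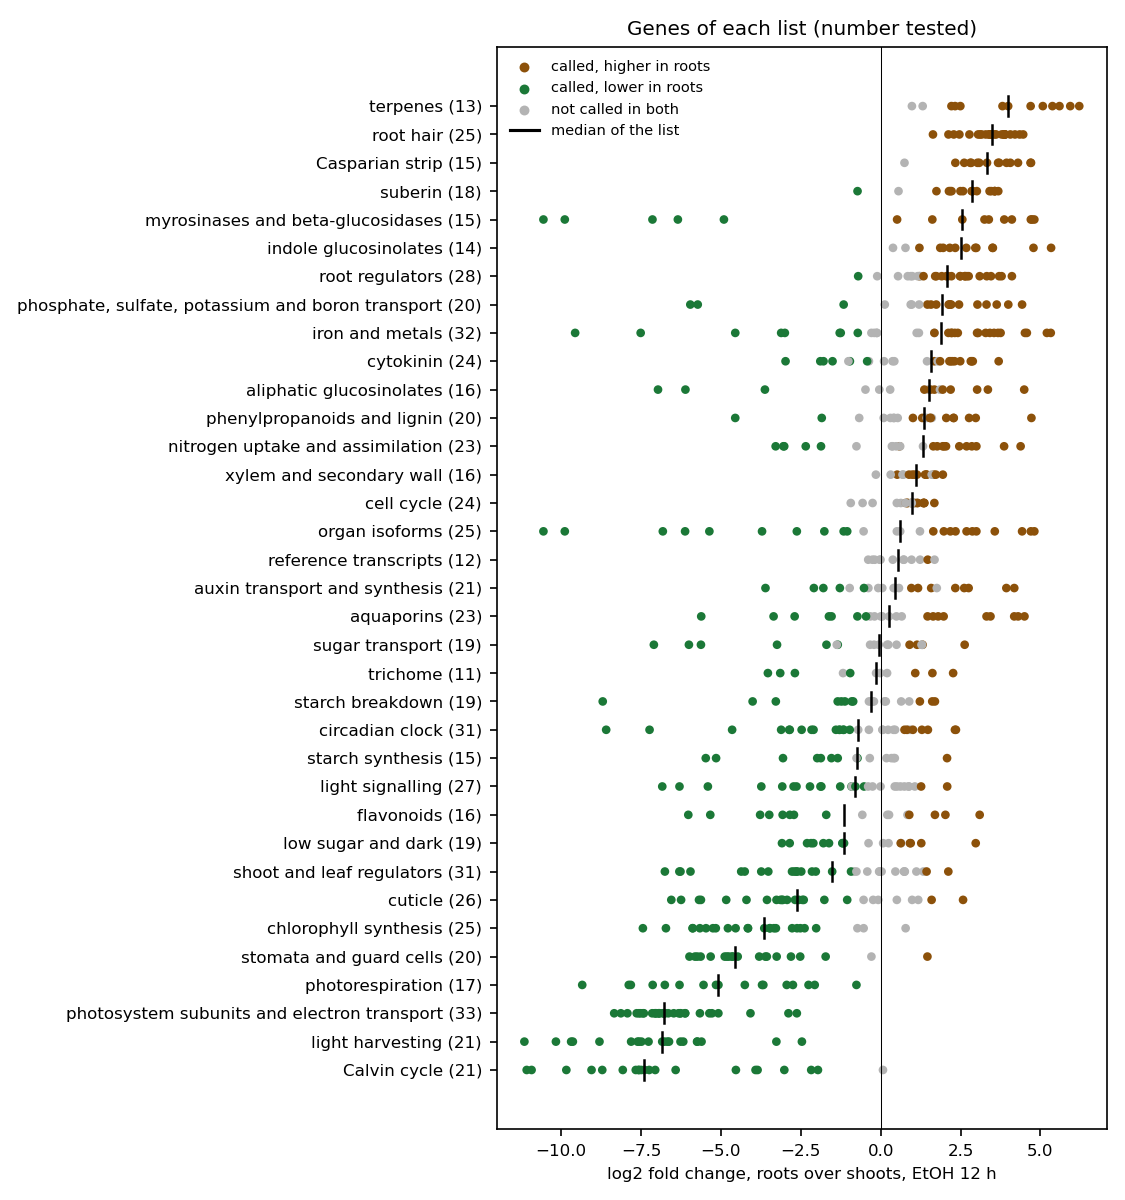
Log2 fold change of roots over shoots at EtOH 12 h for each tested member of the gene lists, 1 point per gene and a bar at the list's median. Light harvesting, photosystems and the Calvin cycle lie below -6 at the median, and terpenes, root hair, Casparian strip and suberin have medians of 3.99, 3.47, 3.33 and 2.86.

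Most genes of the root's barriers and hairs were higher in roots. Of 15 Casparian strip genes 14 were called higher and 0 lower, with a median log2 fold change of 3.33, or 3.67 with the 1 member at the lowest value in all shoot libraries set to its bound. CASP1, a membrane scaffold of the strip, had 791, 786 and 1177 normalised counts in roots and 39.1, 40.5 and 24.6 in shoots, with the groups apart in every library. Its log2 fold change was 4.69 ± 0.55 (adjusted p = 2.21e-10). CASP2 had 4.06 ± 0.35, and PER64, a peroxidase that helps to polymerise the strip's lignin, 4.71 ± 0.42. Among 18 suberin genes 16 were higher and 1 lower, with a median of 2.86. FACT, which joins caffeic acid to fatty alcohols in suberin wax, had 1005, 1136 and 1164 in roots and 105, 40.5 and 143 in shoots, with a log2 fold change of 3.68 ± 0.40. CYP86A1, a fatty acid hydroxylase, had 3.57 ± 0.38, and the fatty acyl reductases FAR4 and FAR5 had 3.57 ± 0.36 and 3.57 ± 0.40. KCS20, an elongase of very long chain fatty acids that also serves cuticular wax, was lower in roots, with -0.73 ± 0.17. All 25 root hair genes were higher, with a median of 3.47 that was 4.28 without shoot replicate 2. XTH14, a xyloglucan-modifying enzyme, had 582, 581 and 920.4 in roots and 30.6, 40.5 and 21.3 in shoots, and a log2 fold change of 4.46 ± 0.43. LRX1, a leucine-rich repeat extensin of the root hair wall, had 4.35 ± 0.48, PRP3, a structural proline-rich protein, 4.2 ± 0.46, and RHS19, a peroxidase, 4.06 ± 0.50.

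Most genes of the cuticle and of stomata were lower in roots. Of 26 cuticle genes 18 were lower in roots and 2 higher, with a median of -2.62. CER2, which acts in wax elongation, had 7.66, 6.66 and 3.22 normalised counts in roots and 476, 1012 and 479 in shoots. The log2 fold change was -6.55 ± 0.43 (adjusted p = 4.67e-19). KCS6, the main elongase of cuticular wax, had -6.25 ± 0.29. CYP77A6, a cutin hydroxylase, had -5.69 ± 0.72 and -4.32 without shoot replicate 2, and MYB16, a regulator of the cuticle, -5.63 ± 0.65 and -6.6. The 2 members that were higher in roots were CER4, a reductase that makes primary alcohols and is also known from roots, with 2.58 ± 0.51 and 3.16 without shoot replicate 2, and GPAT6, an acyltransferase of cutin, with 1.59 ± 0.36. Of 20 stomatal and guard cell genes 18 were lower and 1 higher, with a median of -4.55, or -5.03 with the 8 members at the lowest value in all root libraries set to their bounds. FAMA, the factor that completes guard cell identity, had 2.55, 0.666 and 0.357 in roots and 252, 40.5 and 194 in shoots. ERL2, a receptor kinase that spaces stomata, was at the lowest value in all 3 root libraries and at least 341-fold lower there, taking 3 counts over the group as the limit, which covers counting error only. KAT1, a guard cell potassium channel, had -5.74 ± 0.64 and -6.54 without shoot replicate 2. EPFL9, the peptide that promotes stomata, had -5.64 ± 0.65 and -6.54 without it. GORK, an outward potassium channel that guard cells share with root hairs, was higher in roots, with 138, 157 and 161 in roots and 65.03, 40.5 and 61.1 in shoots and a log2 fold change of 1.46 ± 0.26. Trichome genes split, with 3 higher and 4 lower of 11, beside 24.5% and 22.0% over all genes. The inhibitors ETC3 and TRY had -3.15 ± 0.69 and -2.69 ± 0.65, and ETC2 was at least 32.2-fold lower in roots. SIM, an inhibitor of division in trichomes, had 2.27 ± 0.33, and GL3, a bHLH factor also active in root hair patterning, 1.62 ± 0.54 and 2.55 without shoot replicate 2.

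Most called regulators of shoot and leaf were lower in roots, and most called root regulators were higher. The YABBY factors, which mark the lower side of leaves, were near or at the lowest value in roots. FIL, YAB5 and YAB2 stood at it in all 3 root libraries and were at least 914-fold, 544-fold and 394-fold lower there. YAB3 had 2.55, 0.999 and 1.07 normalised counts in roots and 422, 40.5 and 411 in shoots, with a log2 fold change of -6.3 ± 0.70 and -7.41 without shoot replicate 2. Over 31 regulators of shoot and leaf 17 were lower and 2 higher in roots, with a median of -1.52. ROT3, a brassinosteroid cytochrome P450, had 2.12 ± 0.35 and 1.5 without shoot replicate 2. REV, a class III HD-ZIP factor of vascular and leaf polarity, had 515, 515 and 553 in roots and 435, 40.5 and 412 in shoots, and its fold of 1.44 ± 0.34 shrank to 0.32 without that library. Over 28 root regulators 20 were higher and 1 lower, with a median of 2.08, or 2.93 without shoot replicate 2. The MADS-box factors AGL42, AGL17, AGL21 and XAL1 had 4.11 ± 0.41, 3.78 ± 0.65, 3.71 ± 0.52 and 3.45 ± 0.48, and without shoot replicate 2 4.89, 5.22, 4.61 and 4.25. AGL17 had 84.2, 74.6 and 73.6 in roots and 1.27, 40.5 and 0.948 in shoots. SCR, a GRAS factor of the endodermis that also acts in the leaf's bundle sheath, was lower in roots, with -0.71 ± 0.18.

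Uptake carriers split by organ within their families. Of 23 nitrogen genes 12 were higher in roots and 5 lower, beside 24.5% and 22.0% over all genes, with a median of 1.32. AMT1;3, a high-affinity ammonium transporter, had 618, 546 and 780.0 normalised counts in roots and 29.3, 40.5 and 22.3 in shoots, and a log2 fold change of 4.38 ± 0.48 (adjusted p = 3.01e-11). NRT1.9, a nitrate carrier of the root phloem, had 3.86 ± 0.35. NRT1.7, which loads nitrate into the phloem of old leaves, and NRT2.7, a vacuolar nitrate carrier, were lower, with -3.05 ± 0.33 and -3.29 ± 0.46. Of 20 carriers of phosphate, sulfate, potassium and boron 13 were higher and 3 lower, with a median of 1.93. SULTR1;2, the main sulfate uptake carrier, had 4.43 ± 0.30. HAK5, the high-affinity potassium carrier, had 81.7, 73.6 and 129.7 in roots and 0.425, 40.5 and 2.37 in shoots, with 3.99 ± 0.69 and 5.41 without shoot replicate 2. SULTR3;1, a chloroplast sulfate carrier, and AKT2, a phloem potassium channel, were lower, with -5.96 ± 0.61 and -5.73 ± 0.48, and the first had -7.09 without that library.

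Iron genes had members at both ends. IRT1, the main iron uptake carrier, had 2608, 2023 and 3822 normalised counts in roots and 169, 40.5 and 56.4 in shoots. Its log2 fold change was 5.2 ± 0.70 (adjusted p = 7.85e-09). CYP82C4, which hydroxylates the iron-mobilising coumarin fraxetin, had 5.32 ± 0.81. FRO6, an iron reductase of leaf cells, had 2.55, 3.33 and 2.501 in roots and 4564, 1539 and 3328 in shoots, and a log2 fold change of -9.57 ± 0.57. FRO7, the reductase of the chloroplast, had -7.51 ± 0.82, and -9.23 without shoot replicate 2. In all, 17 of 32 iron and metal genes were higher and 8 lower in roots, beside 24.5% and 22.0% over all genes. Aquaporins, the water channels, split as 9 higher and 7 lower of 23, with a median of 0.26 against 0.28 over all genes. TIP2;3 and TIP4;1 of the vacuole membrane had 4.5 ± 0.50 and 4.3 ± 0.43, NIP1;1 4.18 ± 0.41, PIP2;6 of the plasma membrane -5.62 ± 0.33, and TIP2;1 -3.35 ± 0.24.

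For several reactions, transcripts of one isoform were higher and those of another lower in roots. The list of 25 isoforms was drawn up as such pairs, so its split of 11 higher and 10 lower is set by the choice of members. FD3, a root ferredoxin, had 1238, 1279.7 and 1380 normalised counts in roots and 226, 688 and 229 in shoots, with a log2 fold change of 1.98 ± 0.29. FD2, the main leaf ferredoxin, had 186, 224 and 214 in roots and 7390.4, 10367 and 8236 in shoots, and -5.36 ± 0.19. FD1 had -2.63 ± 0.59 and -4.44 without shoot replicate 2. Ferredoxin-NADP reductase showed the same split, with RFNR2 at 2.34 ± 0.23, LFNR1 at -6.12 ± 0.30 and LFNR2 at -6.82 ± 0.42. RFNR1, listed as a root form, was not called, with 1.23 ± 0.38 and 0.21 without that library. For glutamine synthetase, which assimilates ammonium, the plastid form GLN2 had 1299, 1271 and 1446 in roots and 19209, 14700 and 19167 in shoots, and -3.71 ± 0.16. The cytosolic GLN1;1 had 1837, 1814 and 2289.7 in roots and 304, 162 and 303 in shoots, and 2.99 ± 0.35. GLN1;2 and GLN1;3 had 1.65 ± 0.29 and 2.69 ± 0.33, with 0.87 and 1.84 without shoot replicate 2, and GLN1;4, at 0.61 ± 0.29, was not called. Among acyltransferases the suberin forms GPAT5 and GPAT7 had 2.87 ± 0.42 and 2.18 ± 0.53 (3.05 for GPAT7 without that library). The cutin form GPAT8 had -1.05 ± 0.33 and -2.03. GPAT4 passed with all libraries but not without that one, with -0.54 ± 0.20 and -0.39. The hydroxylase CYP86A4, with 0.51 ± 0.30, was not called. CYP86A2, a cutin hydroxylase, had -1.76 ± 0.31 and -2.46, and SULTR2;1, a vascular sulfate carrier, -1.16 ± 0.47 and -2.68.

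**Figure D4:**
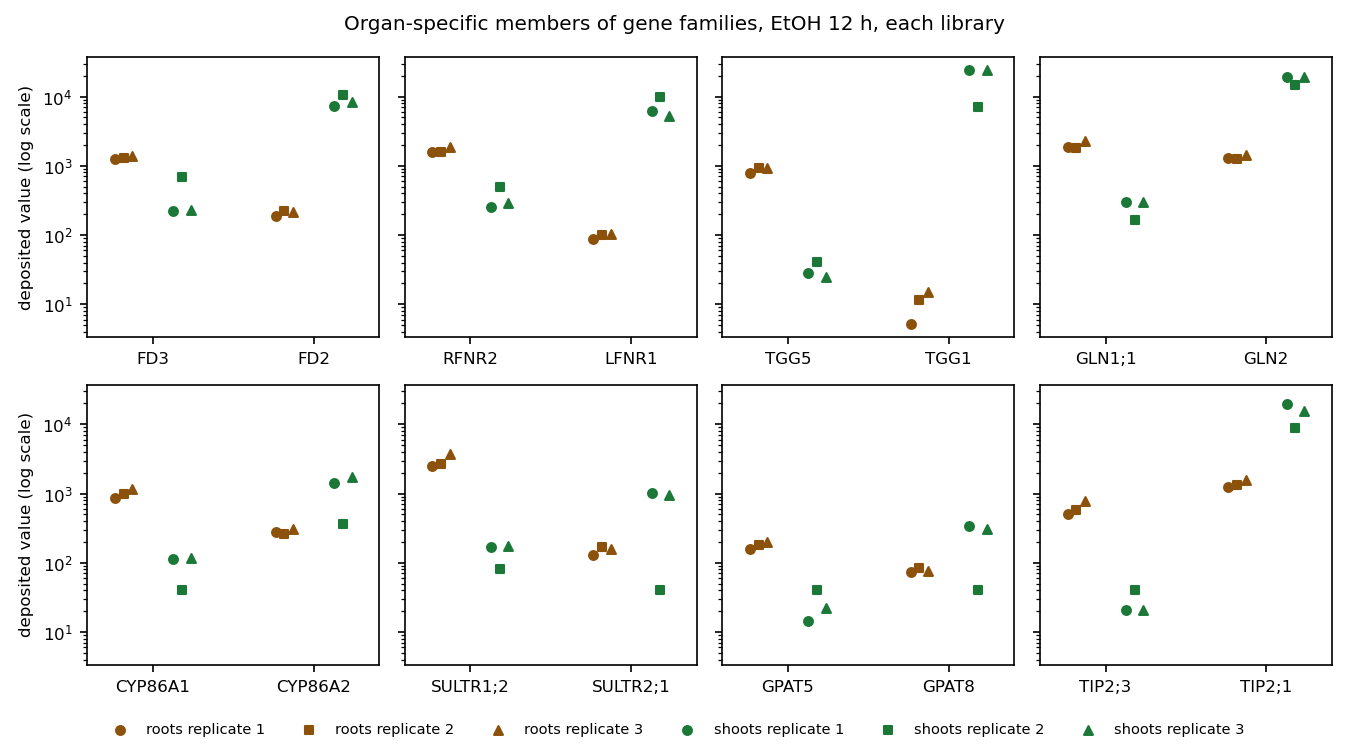
Normalised counts (log axis) in each library for 8 pairs of related genes, the root member and the shoot member in 1 panel, root libraries left of shoot libraries. In each pair the first-named gene was called higher and the second lower in roots. Listed isoforms that were not called are left out, so this split is set by the choice of pairs. The highest shoot point of TGG5, GPAT5 and TIP2;3 and the lowest of SULTR2;1 and GPAT8 is replicate 2 at its lowest value of about 40.5.

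Genes of terpene synthesis were among the strongest on the root side. MRN1, marneral synthase, had 304, 298 and 391 normalised counts in roots and 0.425, 40.5 and 0.474 in shoots, the lowest value of each shoot library. It was at least 509-fold higher in roots, taking 3 counts over the group as the limit. Its neighbours in the marneral pathway, CYP71A16 and CYP705A12, had 5.07 ± 0.64 and 5.07 ± 0.65, with 5.86 and 6.33 without shoot replicate 2. THAS1, thalianol synthase, had 969.6, 1119.9 and 1405 in roots and 26.8, 40.5 and 17.5 in shoots, and a log2 fold change of 5.38 ± 0.47 (adjusted p = 2.06e-14). THAD, which desaturates thalian-diol, had 5.6 ± 0.52. TPS-CIN, a cineole synthase with a near-identical copy, had 6821, 8078 and 7988 in roots and 212, 40.5 and 217 in shoots, with 5.93 ± 0.54 and 5.14 without that library. Of 13 terpene genes 11 were higher in roots and 0 lower, with a median of 3.99. All libraries of one organ lay apart from those of the other for these named genes, as for 27.8% of all genes with roots higher. For those named as among the 15 highest, the rule required it.

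Glucosinolates, the sulfur-rich defence compounds of this family, and myrosinases, the enzymes that release their toxic products, also differed. Of 14 indole glucosinolate genes 12 were higher in roots and 0 lower, with a median of 2.51. CYP81F4, which modifies the indole ring, had 7346, 8181 and 8880 normalised counts in roots and 419.9, 40.5 and 465 in shoots, with 5.33 ± 0.51 and 4.19 without shoot replicate 2. The methyltransferases IGMT1 and IGMT2 had 4.78 ± 0.32 and 3.51 ± 0.49, and CYP79B2, the first step from tryptophan, 3.5 ± 0.38 and 2.5 without that library. Of 16 aliphatic glucosinolate genes 8 were higher and 3 lower. CYP79F1, a first step for these compounds, had -6.97 ± 0.72 and -8.31, and FMOGSOX1, which oxidises their sulfur, -3.62 ± 0.40. MYB29, a regulator of the pathway, was at least 467-fold lower in roots, where it stood at the lowest value in all 3 libraries. MAM3, a chain-elongation synthase, was higher, with 4.49 ± 0.45 and 3.35. The myrosinase TGG1 had 5.103, 11.7 and 15.01 in roots and 24199, 7168 and 24410 in shoots, with a log2 fold change of -10.56 ± 0.68 (-11.14 without that library), and TGG2 -9.89 ± 0.66 (-10.47). The root forms TGG4 and TGG5, which are alike in sequence, had 4.7 ± 0.54 and 4.81 ± 0.61. TGG5 had 783, 939 and 937 in roots and 28.5, 40.5 and 24.6 in shoots. Of the list's 15 myrosinases and beta-glucosidases 10 were higher and 5 lower, the lower ones including ESM1, a modifier of glucosinolate products, at -7.14 ± 0.70 and -8.82, and BGLU18, which releases abscisic acid from its glucose ester, at -6.35 ± 0.63 and -7.58.

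Phenolic compounds gave a mixed picture. Of 16 flavonoid genes 4 were higher and 8 lower in roots, beside 24.5% and 22.0% over all genes. Their median was -1.14, or -0.35 without shoot replicate 2. TT4, chalcone synthase, had 1564, 1782 and 1544 normalised counts in roots and 336, 40.5 and 490.0 in shoots, with 3.1 ± 0.66 and 2.0 without that library. FLS1, flavonol synthase, was higher too, with 2.02 ± 0.52. The anthocyanin enzymes LDOX and DFR were lower, with -5.33 ± 0.81 and -3.77 ± 0.73, the first at -4.28 without shoot replicate 2, as were the repressor MYBL2, with -6.02 ± 0.38, and the glycosyltransferase UGT78D1, with -3.49 ± 0.38. Of 20 phenylpropanoid and lignin genes 10 were higher and 2 lower. PRX72, a lignin peroxidase, had 827, 957 and 1237 in roots and 44.6, 40.5 and 27.5 in shoots, and 4.72 ± 0.56. PAL1, the entry enzyme, had 2.97 ± 0.53 and 1.24 without shoot replicate 2. PAL3, a relative of it, was lower, with -4.55 ± 0.54 and -5.59.

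Other genes with the largest folds belong to several functions. AIR1, a gene induced by auxin in root cultures, had 1937, 1924 and 2483 normalised counts in roots and 15.3, 40.5 and 12.8 in shoots, with a log2 fold change of 6.64 ± 0.54 (adjusted p = 1.74e-15). CYP71A12, an enzyme of indole defence compounds, had 5.21 ± 0.55, AGP30, an arabinogalactan protein, 5.16 ± 0.68 with 6.02 without shoot replicate 2, LAC7, a laccase, 4.84 ± 0.43, and MLP34 5.13 ± 0.45 with 4.02. On the shoot side XTH6, a wall enzyme, had -10.1 ± 0.68, THI2.2, a thionin, -9.49 ± 0.67, and CA2, a cytosolic carbonic anhydrase, -10.45 ± 0.60 with -11.41.

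Genes of growth and hormones had list medians of 0.45 to 1.56. Of 24 cell cycle genes 12 were higher in roots and 0 lower, with a median of 0.98. CYCB1;3, a mitotic cyclin, had 119.9, 107 and 101 normalised counts in roots and 34.00, 40.5 and 27.01 in shoots, and 1.68 ± 0.30, and CDKB1;1 had 1.35 ± 0.24. The cytokinesis genes KN and HIK had 1.37 ± 0.30 and 1.35 ± 0.36, with 0.75 for the first without shoot replicate 2. Of 16 xylem and secondary wall genes 11 were higher and 0 lower, with CESA7 and CESA8, cellulose synthases of the secondary wall, at 1.94 ± 0.29 and 1.66 ± 0.25 (1.05 for CESA8 without that library). Auxin genes split as 8 higher and 5 lower of 21, beside 24.5% and 22.0% over all genes. PIN2, the efflux carrier of root gravitropism, had 674, 679 and 641 in roots and 40.8, 40.5 and 27.5 in shoots, and 4.18 ± 0.42, ABCB4 had 3.93 ± 0.36 with 3.08 without that library, and YUC2, an auxin synthesis enzyme, was lower with -3.61 ± 0.61. Of 24 cytokinin genes 11 were higher and 6 lower, beside the same shares over all genes. CYP735A2, which makes trans-zeatin, had 3.69 ± 0.51 with 4.31, AHK4, a receptor, 2.85 ± 0.29 with 2.06, and ARR15, a response regulator, -2.98 ± 0.59.

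Transcripts often used as internal references served as a check. Of 12, GAPC1, a cytosolic glycolytic enzyme, was called higher, with 1.47 ± 0.17, and 0 were called lower. With all libraries 6 passed as higher, among them UBC9 at 1.69 ± 0.43 and PP2AA3 at 1.23 ± 0.40, which without shoot replicate 2 had 0.26 and -0.12. ACT2 had -0.01 ± 0.17, EF1A -0.26 ± 0.16 and FBOX -0.03 ± 0.28.

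Clock genes were called in both directions. Of 31 tested 7 were higher and 15 lower in roots, beside 24.5% and 22.0% over all genes. CCA1, a morning factor, had 495, 527 and 478 normalised counts in roots and 5606, 1619.8 and 5141 in shoots, with a log2 fold change of -2.85 ± 0.32 (adjusted p = 1.00e-10). LHY, its partner, had 648, 696 and 721 in roots and 6822, 3159 and 5840.2 in shoots, with -2.86 ± 0.35. Shoot libraries were above root libraries throughout for both. RVE8, LNK2, CDF1 and CDF5, which belong to the morning and midday arms, were lower as well, with -2.16 ± 0.35, -2.48 ± 0.34, -2.1 ± 0.36 and -3.12 ± 0.49, and -2.9, -3.35, -3.01 and -4.19 without shoot replicate 2. GI, an evening gene, had 339, 303 and 317 in roots and 76.5, 40.5 and 80.6 in shoots, with 2.32 ± 0.27. ELF3, ELF4 and TOC1, evening genes too, were higher, with 0.82 ± 0.26, 1.48 ± 0.56 and 1.01 ± 0.21, of which ELF4 had 2.77 without shoot replicate 2. PRR3 had 1.29 ± 0.45 and 2.36. GRP7, an RNA-binding protein under clock control, had 1740.2, 1761 and 1641 in roots and 293, 445 and 286 in shoots, with 2.35 ± 0.26. LUX, RVE6 and LKP2 were not called, with 0.06 ± 0.27, 0.05 ± 0.22 and 0.23 ± 0.38, values that turned to -0.25, -0.41 and -0.56 without that library.

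The organ difference at 12 h was then set against its mean at the other EtOH times, 0, 1, 3, 6 and 24 h, in the same fit. At an adjusted p under 0.05 with and without shoot replicate 2, the difference was higher at 12 h for 413 genes (2.12%) and lower for 427 (2.19%). With all libraries the counts were 3449 (17.7%) and 1881 (9.63%), and without that library 505 (2.59%) and 888 (4.55%). Against 6 h alone, 519 genes (2.66%) were higher and 314 (1.61%) lower both ways, set beside 1068 (5.47%) and 640 (3.28%) with all libraries and 628 (3.22%) and 728 (3.73%) without that library. Leaving out each of the other libraries of the 6 in turn gave 174 to 353 higher and 158 to 323 lower than over the other times, with the fewest higher without shoot replicate 1 and the fewest lower without shoot replicate 3. None of the photosystem, suberin, Casparian strip, root hair, stomatal, cuticle or terpene genes was among the 413 or the 427. With 2.12% and 2.19% over all genes, lists of this size would hold few calls in any case. Lower were 3 of 17 photorespiration genes, 1 of 21 light-harvesting and 1 of 21 Calvin cycle genes, and 1 of 25 chlorophyll synthesis genes was higher. The lists with the highest share of calls were starch breakdown, where 11 of 19 genes were higher and 2 lower, and the clock, where 5 of 31 were higher and 7 lower.

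For 11 of 19 starch breakdown genes the roots stood higher relative to the shoots at 12 h than over the other times. SEX1, the glucan water dikinase that starts the attack on the starch granule, had 253, 261 and 270.5 normalised counts in roots and 231, 40.5 and 291 in shoots at 12 h, groups that overlap, with a log2 fold change of 0.89 ± 0.31 that passed with all libraries and was 0.01 without shoot replicate 2. Its median over the 3 libraries at the 6 EtOH times (0, 1, 3, 6, 12, 24 h) was 550.5, 450.2, 538, 525, 261 and 292 in roots and 3163, 3094, 2413, 6553, 231 and 371 in shoots. The shoot level was low at 24 h as well as at 12 h. The organ difference at 12 h exceeded the mean of the other times by a log2 value of 3.25 ± 0.34 (adjusted p = 1.21e-09), or 2.36 without shoot replicate 2. DPE1, the plastid disproportionating enzyme, had medians of 149, 164, 173, 164, 93.6 and 123 in roots and 874, 728, 472, 997, 40.8 and 69.5 in shoots over the same times, and a contrast of 2.86 ± 0.35. The other disproportionating enzyme, DPE2 in the cytosol, had a contrast of 2.67 ± 0.32 (1.8 without that library), the alpha-amylase AMY3 2.85 ± 0.35 (1.99) and the debranching enzyme ISA3 2.2 ± 0.22. BAM3, the main plastid beta-amylase, moved the other way. It had 7.66, 9.32 and 7.15 in roots and 3962, 3037 and 4361 in shoots at 12 h, a log2 fold change of -8.7 ± 0.47, and a contrast of -2.85 ± 0.52. Its medians over the 6 times were 27.02, 9.22, 10.5, 5.400, 7.66 and 6.298 in roots and 348, 279, 865, 1288, 3962 and 2012 in shoots. BAM9, a relative without known activity, had a contrast of -2.25 ± 0.32. In starch synthesis 8 of 15 genes were lower in roots at 12 h, with GBSS1, the amylose synthase, at -5.48 ± 0.67 and -7.46 without shoot replicate 2, APL1 at -5.15 ± 0.24 and SS3 at -3.06 ± 0.24. PGI1 was higher, with 2.08 ± 0.36 and 0.88 without that library. Against the other times 5 of the 15 were higher and 0 lower, with a median contrast of 1.24, or 0.51 without that library, against 0.15 and -0.07 over all genes.

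Levels of clock genes over time are given as medians, and a change with time within an organ was not tested. CCA1 had medians of 63.2, 16.4, 35.1, 3.52, 495 and 382 normalised counts in roots and 443, 70.5, 641, 61.2, 5141 and 3189 in shoots at the 6 EtOH times (0, 1, 3, 6, 12, 24 h). Both organs were highest at 12 h, and the organ difference of CCA1 was not called against the other times, with 0.34 ± 0.36. RVE1, a related factor that acts on auxin synthesis, had 27.02, 51.5, 35.3, 35.4, 84.2 and 96.2 in roots and 144, 54.7, 264, 50.04, 1863 and 733 in shoots, and a contrast of -2.91 ± 0.29. The root medians of RVE1 and BAM3 at 0 h, and that of RVE1 at 3 h, are the lowest value of a shallow library. COL2, a CONSTANS-like factor, had 33.4, 39.3, 26.3, 29.4, 31.8 and 32.9 in roots and 266, 121, 362, 67.7, 4234 and 2005 in shoots, with -4.14 ± 0.29, and its relative COL1 had -3.1 ± 0.58. GI had 1105, 868, 887, 284, 317 and 489 in roots and 549.9, 1499, 821, 1571, 76.5 and 107 in shoots, with 2.36 ± 0.30 (adjusted p = 1.12e-07). PRR9, PRR7 and PRR5, repressors that act from morning to evening, had 1.94 ± 0.43, 1.37 ± 0.29 and 1.5 ± 0.48, with 1.31 and 2.6 for PRR9 and PRR5 without shoot replicate 2. The median of GRP7 was 5487, 10428, 4482, 8847, 1740.2 and 1723 in roots and 3779.7, 24980, 3416, 21905, 293 and 289.5 in shoots, and its contrast was 2.07 ± 0.28.

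**Figure D5:**
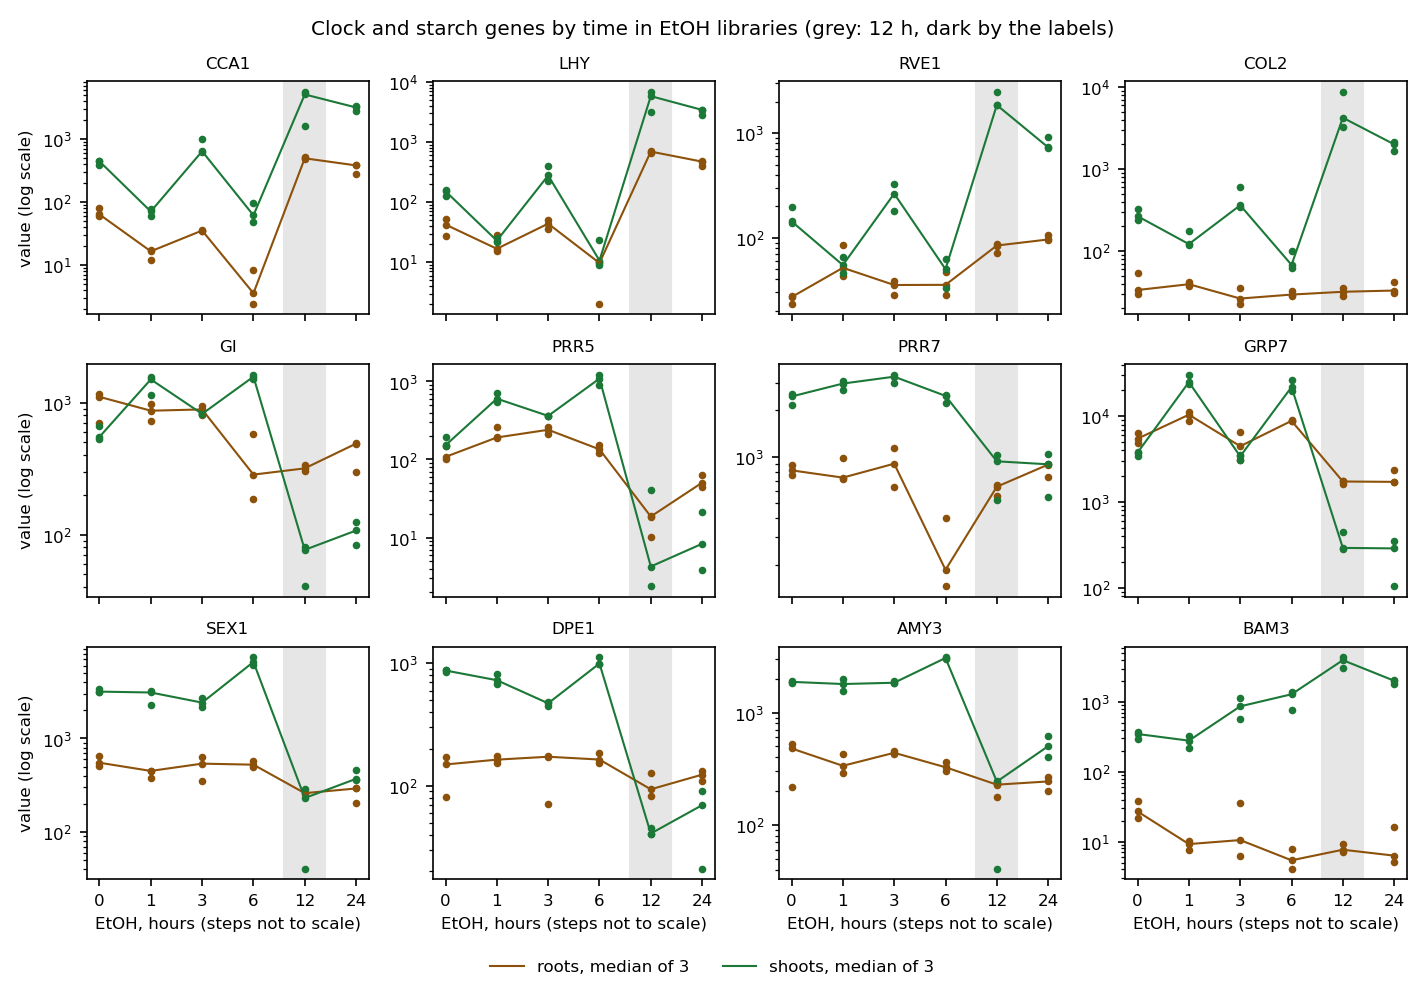
Normalised counts (log axis) over the EtOH times (steps not to scale) for 12 clock and starch genes, points for libraries and lines for the medians of 3, roots and shoots in separate colours, with 12 h shaded. CCA1 and LHY were highest at 12 h in both organs, and the shoot lines of SEX1, DPE1 and GRP7 were below the root lines at 12 h. Those of DPE1 and GRP7 were below at 24 h too, and that of GRP7 also at 0 h and 3 h.

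Of 19 sugar transport genes 4 were higher and 6 lower in roots, shares near the 24.5% and 22.0% over all genes. SWEET11, which exports sucrose from leaf cells for phloem loading, had -5.63 ± 0.40, SWEET1, a glucose carrier, -7.1 ± 0.54 with -5.88 without shoot replicate 2, and TMT1, a vacuolar sugar carrier, 2.63 ± 0.32 with 1.77. Of 19 genes induced by dark or low sugar 5 were higher and 10 lower in roots. SEN1 and DIN11 had -3.09 ± 0.49 (-4.16 without that library) and -2.85 ± 0.50, and DIN10, a glycosyl hydrolase, -2.31 ± 0.28. DIN2, a beta-glucosidase, was higher with 2.97 ± 0.43. Of 27 light signalling genes 14 were lower and 2 higher, with the phytochrome-interacting factors PIF4, PIF5 and PIF7 at -5.41 ± 0.69, -6.84 ± 0.40 and -6.3 ± 0.37, and -6.88 and -7.77 without that library for the first 2. BBX22, a B-box factor of seedling greening, was higher with 2.08 ± 0.23.

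The same organ contrast in the 12 h libraries with t-chalcone gave 4790 genes (24.5%) higher and 5657 (29.0%) lower in roots. It came from the same fit as the EtOH contrast and shares its estimate of spread. Of the 4793 genes called higher at EtOH 12 h 80.7% were called higher there, and of the 4289 called lower 89.1% were called lower, while 6 of all 9082 (0.0661%) were called in the opposite direction. LHCB1.1 had -9.94 ± 0.68, RBCS1B -10.72 ± 0.70, MRN1 6.96 ± 0.72, CASP1 4.36 ± 0.55 and IRT1 4.11 ± 0.70 with t-chalcone. Starch breakdown genes had a median of -1.42 with t-chalcone and -0.31 with EtOH (-0.80 without shoot replicate 2), and starch synthesis genes -2.45 and -0.76 (-1.67). Among single genes SEX1 was at -1.18 ± 0.31 with t-chalcone and 0.89 ± 0.31 with EtOH (0.01 without shoot replicate 2), AMY3 at -1.62 ± 0.32 and 0.64 ± 0.32 (-0.21 without shoot replicate 2), and DPE1 at 0.24 ± 0.32 and 1.23 ± 0.32, in the same order. APL1 had -5.49 ± 0.24 with t-chalcone and -5.15 ± 0.24 with EtOH, and SS3 -3.36 ± 0.24 and -3.06 ± 0.24. The t-chalcone libraries held 1.72, 20.97 and 1.102 M counts in roots and 9.13, 14.3 and 25.97 M in shoots. The difference between the 2 treatments was not tested.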

How the data were processed

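Total RNA of roots and shoots was sequenced from TruSeq libraries, per the labels' protocols. The authors deposited 1 table of 22884 genes and 72 columns, all of which were used. The deposited values are a signal, gene counts that the authors divided by a size factor of each library. Of the values 100% were whole multiples of their column's lowest value within 0.01. These multiples are the recovered reads used here. As the table holds no zeros, they may include a count added to every gene, so depths and recovered reads are approximate. DESeq2 1.14.1 and TAIR10 are named in the submitters' processing notes. The sources used here name no aligner, counter or strand setting. Reads of antisense or overlapping genes and of near-identical copies could not be told apart. The 6 untreated 0 h columns equal the 6 EtOH 0 h columns and were counted once, which left 66 libraries in 22 groups of 3.

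Values were analysed as log2(value + 1) with limma 3.58.1 in R 4.3.3, with a mean-variance trend and 1 mean per group over all 66 libraries. Genes needed at least 10 in at least 3 of the 6 contrast libraries (19524 genes), and p-values were adjusted by Benjamini-Hochberg with a threshold of 0.05, two-sided. On this scale a fold change understates the change of low genes, and ± is the standard error of the fit with 3 libraries in each group. The test script was checked on simulated data. Alternatives were edgeR 4.0.16 and DESeq2 1.42.0 on the recovered reads, other scalings, pseudocounts, filters and sets of libraries, and leaving out each library.

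Genes were named by rule: the 15 highest and 15 lowest with a RefSeq symbol and, in the organ where they are higher, a mean of 50 or more, no overlap between organs and calls with and without shoot replicate 2; up to 4 called members of each list and 2 against its direction; all isoform, clock and reference genes; and the 10 highest and 10 lowest against the other times. A few of the genes so named are not reported here. The 35 lists hold 767 genes, of which 758 were in the table and 713 passed the filter. The genes and lists were chosen with earlier results of these data known. RefSeq (TAIR10.1) gave names for 22708 IDs and symbols for 9607, and no coordinates.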

Additional observations from a re-analysis of the deposited data

Results flagged for a closer look

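The organ difference at EtOH 12 h differed from its mean at EtOH 0, 1, 3, 6 and 24 h for 413 genes with a higher and 427 with a lower value (limma, adjusted p under 0.05 with and without shoot replicate 2). Against EtOH 6 h alone the counts were 519 higher and 314 lower. All values below are that difference of differences on the log2 scale, roots minus shoots at 12 h minus the same over the other times, with the value without shoot replicate 2 in brackets where it differs by more than 1.5-fold.

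Among starch and sugar genes it was 3.25 (2.36) for SEX1, 2.86 for DPE1, 2.85 (1.99) for AMY3, 2.67 (1.8) for DPE2 and 2.2 for ISA3. It was -2.85 for BAM3, -2.25 for BAM9, -2.89 (-1.68) for the glucose carrier SWEET1 and -0.97 for DIN10. Clock genes above 0 were GI with 2.36, GRP7 with 2.07, PRR9 with 1.94 (1.31), PRR5 with 1.5 (2.6) and PRR7 with 1.37. Those below 0 were COL2 with -4.14, COL1 with -3.1, RVE1 with -2.91, RVE2 with -1.75 (-2.92), CDF2 with -1.31, LHY with -1.12 and RVE8 with -1.0 (-1.74). ASG4, a gene of the same MYB-related family as the RVE genes, had -3.31, and HYH, a relative of the light signalling factor HY5, had -3.08.

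Other genes above 0 were the beta-glucosidase BGLU44 with 3.23 (2.2), the iron-regulated bHLH genes BHLH100 with 3.18 and BHLH38 with 2.78, the protochlorophyllide reductase PORB with 3.1 (2.3), the nudix hydrolase NUDT8 with 2.97, the plastid envelope protein OEP16-1 with 2.87, the immune regulator CBP60G with 2.85 and the B-box gene BBX22 with 2.27. Other genes below 0 were the efflux carrier DTX1 with -3.82 (-2.72), the prenyltransferase cPT4 with -3.65, the auxin glucosyltransferase UGT74E2 with -3.55, the B-box gene BBX16 with -3.41, the carotene hydroxylase BETA-OHASE 2 with -3.25, the thionin THI2.2 with -2.82, the trichome inhibitor TRY with -2.63 and the cytokinin response regulator ARR15 with -2.02. BHLH100 and BHLH38 had organ differences at 12 h of -0.68 ± 0.56 and 0.09 ± 0.49 with t-chalcone, and of 1.68 ± 0.56 and 2.21 ± 0.49 with EtOH, a difference that was not tested.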

How the results depend on the processing

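No paired analysis was possible because the replicate numbers follow accession order and pair nothing. Over the settings run, 123 counts over all genes stayed within 1.5 times the reported count and 79 did not, and 1035 list counts did and 85 did not. For named genes, roots over shoots, 3871 values kept their side of the threshold with no change of sign in a called value. Of the others 117 lost a call, 43 gained one and 27 changed sign where the reported or the alternative fit called the gene. Against the other times 848 stayed in this way, 59 lost a call, 29 gained one and 9 changed sign in this way. Sign changes where neither fit called the gene are counted among the 3871 and the 848. In shoot replicate 2 differences below about 40.5 normalised counts cannot be seen. The causes of the changes below were not tested.

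On the recovered reads, roots against shoots gave 7025 higher and 7136 lower with edgeR and 6203 higher and 7012 lower with DESeq2. The contrast's own libraries alone gave 2232 higher and 2338 lower, both as counted with all libraries and for calls made both ways. A filter at 50 gave 3133 lower, or 2554 called with and without shoot replicate 2. Array weights gave 8252 lower and, for calls made both ways, 7634 higher and 8205 lower. Leaving out libraries under 0.5 M, shoot replicate 2 among them, is a single fit and gave 7323 lower. Calls lower both ways were 6757 with edgeR and 6468 with DESeq2. Leaving out each library in turn gave 5684 to 7930 higher and 4599 to 6335 lower with all others, and 3791 to 4668 higher and 3488 to 4106 lower for calls made both ways.

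Against the other EtOH times, EtOH libraries alone, which are the contrast's own libraries, gave 554 higher and 519 lower, and 262 lower both ways. Libraries over 0.5 M, a single fit without shoot replicate 2, gave 1073 higher and 2146 lower. Array weights gave 4557 lower, and 2531 higher and 4340 lower both ways. edgeR gave 1996 higher, and 1963 higher and 1659 lower both ways, and DESeq2 1075 higher, and 1053 higher and 1366 lower both ways. Leaving 24 h out of the other times, a choice made after seeing the data, gave 843 higher both ways. Leaving out each library gave 505 (shoot replicate 2) to 6602 (shoot replicate 3) higher and 888 (shoot replicate 2) to 3357 (shoot replicate 3) lower. It gave 6541 higher and 3353 lower without shoot replicate 1, 1773 and 1168 without root replicate 2, 1539 and 1122 without root replicate 3, and 1010 lower without root replicate 1. Calls both ways were 174 (shoot replicate 1) to 353 higher and 158 (shoot replicate 3) to 323 lower, with 208 higher without shoot replicate 3, 260 higher without root replicate 3, 203 lower without shoot replicate 1 and 254 lower without root replicate 1.

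Against 6 h, the contrast's own libraries gave 98 higher and 35 lower, also both ways. EtOH libraries gave 391 higher and 201 lower, and 180 lower both ways. Array weights gave 2958 higher and 3672 lower, and 2855 and 3557 both ways. Libraries over 0.5 M, again a single fit without shoot replicate 2, gave 1270 higher and 1764 lower. edgeR gave 1738 higher and 1511 lower, and 1726 and 1378 both ways. DESeq2 gave 1690 lower, and 1110 higher and 1111 lower both ways. Leaving out each library gave 614 (root replicate 3) to 5058 (shoot replicate 3) higher and 394 (root replicate 1) to 2184 (shoot replicate 1) lower, and both ways 349 to 495 higher and 190 (shoot replicate 3) to 263 lower.

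Signs changed, where either fit called the gene, for genes that were not called both ways. The log2 fold change of BGLU44 was -0.43 with array weights, -0.37 with edgeR and -0.51 without shoot replicate 2 or all libraries under 0.5 M. In that order RVE6 had -0.38, -0.30 and, without all shallow libraries, -0.41, and LKP2 -0.69, -0.51 and -0.56, with -0.49 by DESeq2. LNK1 had -1.25, -1.08 and -1.33, with -0.96 by DESeq2. With array weights LUX had -0.44, TIP41L 0.22, PP2AA3 -0.090, SAND -0.013 and UBC21 -0.079, and without shoot replicate 2 PP2AA3 had -0.12, SAND -0.060 and UBC21 -0.11. Against the other times, array weights turned RVE4 to -0.47, RVE6 to -0.42, ELF4 to 0.87, LUX to -0.46, BOA to 1.11 and LKP2 to -0.084. Without libraries under 0.5 M RVE4 had -0.58 and LNK1 -0.10, and LNK1 had -0.024 without shoot replicate 2. Leaving out each library gave log2 fold changes of up to 1.08 for BGLU44, 1.28 for LNK1, 1.92 for PP2AA3, 1.48 for SAND and 1.12 for UBC21, with the values without shoot replicate 2 as the lowest, and up to 2.59 for LNK1 against the other times.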

Other observations

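The medians of LUX and ELF4, evening genes of the clock, lay in pairs of EtOH times that the labelled hours do not give. LUX, a repressor of the evening complex, had medians of 235, 536, 196, 397, 66.1 and 63.9 normalised counts in roots and 192, 1143, 177, 819.7, 75.7 and 41.9 in shoots at the 6 EtOH times (0, 1, 3, 6, 12, 24 h). ELF4, its partner, had 89.9, 316, 106, 823, 20.3 and 18.2 in roots and 9.74, 129.9, 15.1, 383, 1.895 and 3.86 in shoots. In both organs the level at 24 h was nearest to that at 12 h, the level at 1 h to that at 6 h and the level at 0 h to that at 3 h, on a ratio scale. The ELF4 shoot median at 24 h, 3.86, is the lowest value of shoot replicate 2 at that time. In shoot replicate 3 at 24 h the lowest value was 20.95, coarse beside the LUX median of 41.9. GI, another evening gene, had root medians of 1105, 868, 887, 284, 317 and 489, where the level at 1 h was nearest to that at 3 h. By the labels 0 h and 24 h share an hour of day, and 1 h lies between 0 h and 3 h. These pairs were noticed in the values and were not tested, and LUX and ELF4 were picked for this description after their values were seen.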
